A study of Macaca mulatta with 6 samples.

Results

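The genes described here encode the telomere-binding proteins of the shelterin complex and telomerase: TERF1, TERF2, TERF2IP, POT1, TINF2 and ACD for shelterin, and TERT and DKC1 for telomerase. They were chosen by name, as the rows whose gene symbol equals one of these 8 among the 30246 gene rows of the deposited tables. Each symbol had 1 row with a passing status in every library, and all 8 passed the filter on low values. RNA sequencing covered 6 lines of rhesus monkey (Macaca mulatta) iPSCs, induced pluripotent stem cells. There were 2 female naive lines, 2 male naive lines and 2 male primed lines, with 1 library per line. The sample titles name a sex only for the female naive lines, and the other lines are called male here.

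Naive iPSCs are held in a state like the epiblast before implantation, and primed iPSCs in a state like the later epiblast. Both naive groups grew in the medium labelled 6SM, which held 15% serum replacement, N2 supplement, 4 ng/ml bFGF and 10 ng/ml human LIF. It also held 4 kinase inhibitors: CHIR99021 at 3 µM against GSK3, PD0325901 at 0.5 µM against MEK, SB203580 at 10 µM against p38 and SP600125 at 10 µM against JNK. The primed lines grew in the medium labelled hESM, with 20% serum replacement and bFGF. Feeder cells were removed before RNA isolation in all groups. The labels tie no line to a donor and do not say whether a line is a single clone, and p-values therefore reflect only how far these lines spread, which may be technical. No primed female line was analysed here, so in the comparison of all naive with primed lines sex is not matched.

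Telomeres are tracts of short repeats that cap chromosome ends, and shelterin is the protein complex that covers them and keeps them from being treated as broken DNA. TERF1 and TERF2 bind the double-stranded repeats, POT1 binds the single-stranded overhang, and TINF2 and ACD link these proteins to each other. Telomerase adds repeats: TERT is its reverse transcriptase, and dyskerin, the product of DKC1, binds and stabilises its RNA. Pluripotent stem cells keep telomerase active, and in mouse Terf1 is known for its high expression in such cells.

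Expression is given as FPKM, a fragment count scaled to transcript length and library depth, so levels of different genes can be set side by side. The fragments behind a value were estimated from the error bounds deposited with it and are called effective fragments. Their sums were 8294782 and 10013491 in the female naive, 1754857 and 1478692 in the male naive and 9970137 and 7607125 in the primed libraries, so low depth goes with the male naive group. Rows spanning under 300 bp held 11.7% to 16% of the FPKM in the female naive, 22.3% to 24.4% in the male naive and 9.32% to 14.9% in the primed libraries. Of 6 pluripotency markers, 4 were called higher in naive than in primed lines and 0 lower (limma), and NANOG, PRDM14 and DPPA4 were also called higher in female than in male naive lines. POU5F1 was at 738.1 and 1160 FPKM in the female naive, 536.4 and 571.3 in the male naive and 134.6 and 109.2 in the primed lines (log2 difference of naive and primed 2.55, adjusted p = 0.00507). DPPA4 was at 152.1 and 217.3, 78.2 and 77.9, and 21.8 and 19.6 FPKM in the same order (2.47, adjusted p = 0.00348). Both keep the order of groups that TERF1 shows below. SOX2 ran the other way, at 85.3 and 100.5, 114.3 and 121.6, and 140.8 and 124.1 FPKM in that order of groups. Its log2 difference was -0.34 (limma unadjusted p = 0.0292, adjusted p = 0.119). At an unadjusted p under 0.05, 4 of the 6 markers were higher in naive lines and 1 was lower. NANOG was at 28.7 FPKM or more in naive and at 0.933 and 2.09 in the primed lines, PRDM14 at 6.74 or more in naive and at 0.52 and 1.13 in the primed lines, and SOX2 and SALL4, at 48 FPKM or more in all 6 lines, were not called. Fibroblast and feeder markers summed to 407.5 and 546.2 FPKM in the female naive, 574.1 and 466.3 in the male naive and 669.1 and 757.1 in the primed lines. VIM was the largest single part of each sum, at 187.4 to 451.3 FPKM in naive lines and 642.3 and 500.8 in the primed lines. It was the 1 of 10 tested markers that was called (lower, log2 difference -1, limma adjusted p = 0.016). In the female naive lines the other markers together exceeded VIM. Without VIM the sums were 220.1 and 339.7 FPKM in the female naive, 122.8 and 93.6 in the male naive and 26.8 and 256.3 in the primed lines, so primed 1 was lowest. At an unadjusted p under 0.05, 3 markers were higher in naive lines, THY1 (log2 difference 2.02, adjusted p = 0.0652), TWIST1 (0.97, 0.107) and PDGFRB (0.54, 0.157), and VIM was lower. Of all 13685 tested rows, 4235 had an unadjusted p under 0.05 in this comparison. COL1A1 was at 42 to 153.1 FPKM in naive lines and at 9.23 and 135.4 in the primed lines. Both DCN and FAP were listed at 0 in the male naive libraries. The matrix genes LUM, DCN and POSTN were highest in primed 2, at 19.9, 3.11 and 13 FPKM, and next in female naive 1, at 3.85, 0.763 and 5.32. In the remaining lines they were at 1.88 or less. COL3A1 was at 28.6 FPKM in primed 2 and at 0.414 to 7 in the other lines. Neural markers summed to 20 and 9.25 FPKM in the female naive, 67 and 52.3 in the male naive and 70.2 and 69.9 in the primed lines. Of 5 tested, 2 were called lower and 0 higher in naive than in primed lines. They were MAP2 (log2 difference -1.39, limma adjusted p = 0.0244) and NEFL (-1.14, 0.0248). In female against male naive lines 3 were called lower (MAP2, TUBB3 and NEFL) and 0 higher, and in male naive against male primed lines 0 were called. The part of these markers, of depth and of short rows in the telomere gene results was not tested.

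TERF1 was the member that differed most between the states, and it was higher in all 4 naive lines than in either primed line. TERF1 (ENSMMUG00000023208, chromosome 8, 75504894 to 75543045, in the coordinates of the deposited tables, whose genome build is not given in the sources used here) was at 240.6 and 221.7 FPKM in the female naive lines, 132.2 and 143.6 in the male naive lines and 48.3 and 50.2 in the primed lines. The 3 groups did not overlap, and the 2 lines of each group lay close together. The group means were 231 ± 13.4 FPKM in the female naive, 138 ± 8.06 in the male naive and 49.3 ± 1.36 in the primed lines (SD, n = 2 each). Averaged over the naive groups, the rise of TERF1 was 1.84 on the log2(FPKM + 1) scale (SE 0.1, 95% interval 1.59 to 2.08), or 3.57-fold. The test was limma fitted to all 13685 rows that passed the filter, with Benjamini-Hochberg adjustment (adjusted p = 0.00254, higher in 4 of 4 naive lines). By the size of its difference TERF1 was number 322 of these rows. TERF1 stood above 96.1% of tested rows by its mean level in naive lines and above 86.2% by its level in the primed lines. A U6 row that lies inside the TERF1 span was listed at 0 in all libraries. These are bulk samples, in which fewer cells of a type and less RNA per cell cannot be told apart.

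TINF2, the hub that joins TERF1 and TERF2 to ACD, moved the other way. The row of TINF2 (ENSMMUG00000029407, chromosome 7, 87133784 to 87136815) gave 8.9 and 8.93 FPKM in the female naive, 7.06 and 8.3 in the male naive and 14.4 and 16.1 in the primed lines. All 4 naive values lay below both primed values, and the female and male naive means of 8.91 ± 0.0233 and 7.68 ± 0.875 FPKM stood against 15.3 ± 1.2 in the primed lines (SD, n = 2 each). TINF2 fell by 0.81 on the log2(FPKM + 1) scale (SE 0.16, 95% interval -1.19 to -0.43, limma adjusted p = 0.0299), to 0.571 of the primed level on that scale. Leaving out any 1 of the 6 lines ended this call, with adjusted p between 0.0794 and 0.0898 and differences of -0.88 to -0.73. TINF2 rested on 19.4 and 18.9 effective fragments in male naive libraries, against 154 to 231 in the others. Its 3031 bp span lies wholly within the row of GMPR2, a metabolic enzyme gene at 72.2 to 106.1 FPKM that was not called (log2 difference -0.15, adjusted p = 0.612), and since the use of strand is not stated, reads of the 2 genes cannot be told apart where the rows share bases.

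**Figure D1:**
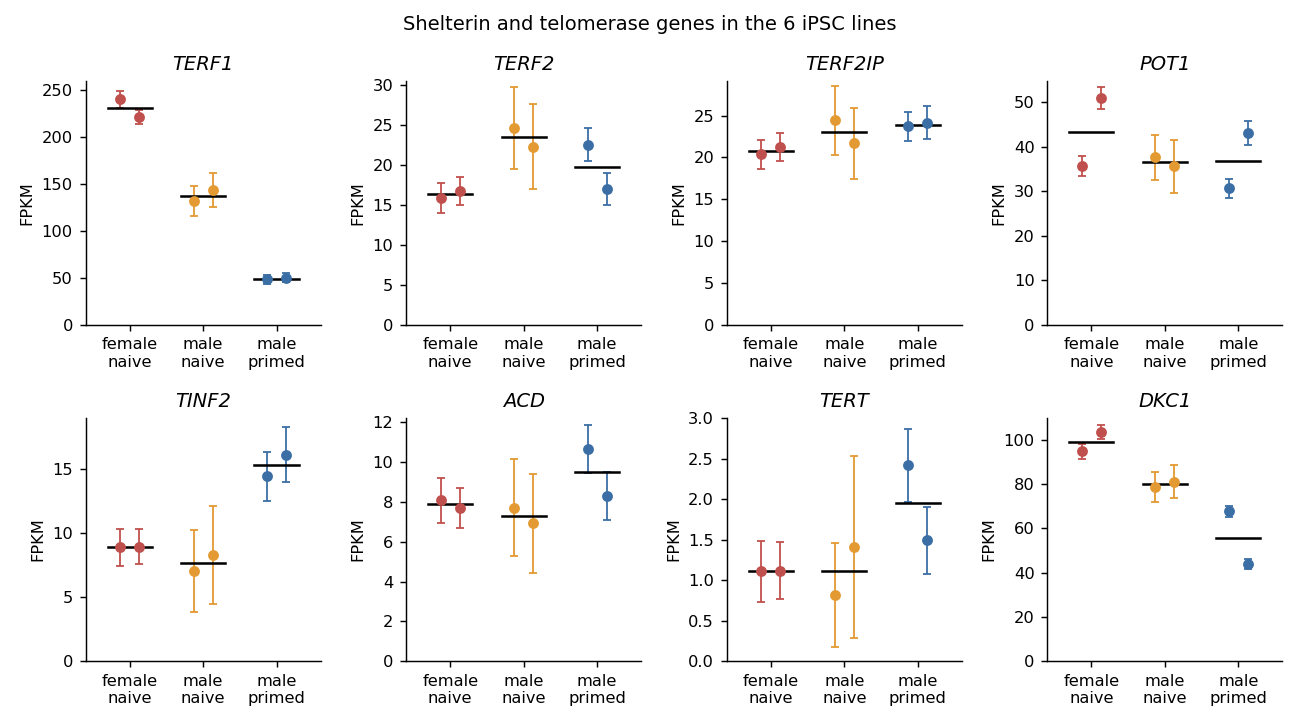
FPKM of the 8 genes (vertical axes, each starting at 0) in the female naive, male naive and male primed lines. Points are single lines with the deposited lower and upper bounds, which cover counting error only, and black bars are group means. TERF1 steps down over the 3 groups at 231, 138 and 49.3 FPKM, TINF2 is highest in the primed lines at 15.3 FPKM, and the wide bounds of TERT in male naive lines reflect about 6 effective fragments.

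The other 4 shelterin genes were not called. TERF2, the second double-strand binding protein, was at 15.9 and 16.7 FPKM in the female naive, 24.6 and 22.3 in the male naive and 22.5 and 17 in the primed lines (ENSMMUG00000016633, chromosome 20, 67732816 to 67763457). The primed values fell inside the range of the naive ones, and the log2 difference of naive and primed lines was 0 (SE 0.16, 95% interval -0.39 to 0.38, limma adjusted p = 0.998). Over the alternatives it ran from -0.25 to 0.19, so TERF2 has no stable direction. TERF2IP (ENSMMUG00000005756, chromosome 20, 73766245 to 73775655), known as RAP1, which reaches telomeres by binding TERF2, varied least among the 8 genes. It was at 20.4 and 21.2 FPKM in the female naive, 24.4 and 21.7 in the male naive and 23.7 and 24.1 in the primed lines (log2 difference -0.12, 95% interval -0.43 to 0.18, adjusted p = 0.547). For both genes the interval leaves out a difference of the size seen for TERF1.

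POT1 (ENSMMUG00000020587, chromosome 3, 162316826 to 162431325), the single-strand binding protein, varied more within groups than between them. It was at 35.7 and 51.1 FPKM in the female naive, 37.6 and 35.7 in the male naive and 30.7 and 43.1 in the primed lines. The group means of 43.4 ± 10.8, 36.6 ± 1.38 and 36.9 ± 8.82 FPKM (SD, n = 2 each, in that order of groups) differed by less than the spread inside the female naive and primed groups. The log2 difference of 0.12 (SE 0.2, 95% interval -0.37 to 0.61, adjusted p = 0.729) was 0 after quantile normalization and -0.01 without female naive 2, so POT1 has no stable direction. ACD (ENSMMUG00000009805, chromosome 20, 65968424 to 65971681) encodes TPP1, the POT1 partner that brings telomerase to the chromosome end. Its values were 8.06 and 7.68 FPKM in the female naive, 7.71 and 6.91 in the male naive and 10.7 and 8.3 in the primed lines. All naive values were below both primed ones, with primed 2 close to female naive 1, and the difference was not called (-0.28, SE 0.18, 95% interval -0.7 to 0.15, adjusted p = 0.333). The ACD row shares 24 bp with the neighbouring RLTPR row.

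Neither telomerase gene was called, and they leaned in opposite directions. TERT (ENSMMUG00000010940, chromosome 6, 940883 to 977147), the catalytic subunit, was the lowest member, at 1.11 and 1.12 FPKM in the female naive, 0.821 and 1.41 in the male naive and 2.42 and 1.49 in the primed lines. The naive lines all lay below the primed ones, with male naive 2 close to primed 2, and the deposited bounds of male naive 2 (0.293 to 2.54 FPKM) covered both primed values. TERT rested on 35.3 and 40.1 effective fragments in the female naive, 6.55 and 6.36 in the male naive and 115 and 53 in the primed libraries, and its difference was -0.47 (SE 0.26, 95% interval -1.1 to 0.16, adjusted p = 0.275). That interval includes the difference of -0.81 measured for TINF2. Without both male naive libraries TERT stood at -0.46 (SE 0.29, adjusted p = 0.356).

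DKC1 (ENSMMUG00000005768, chromosome X, 152757874 to 152772003) was the most abundant of the 8 after TERF1 in naive lines and the most abundant in primed 1. It was at 94.8 and 103.5 FPKM in the female naive, 78.9 and 81 in the male naive and 67.7 and 44 in the primed lines. Every naive line exceeded both primed lines, and the order of the group means was female naive (99.1 ± 6.17 FPKM), male naive (80 ± 1.5) and primed (55.8 ± 16.8; SD, n = 2 each). The gap between the primed lines was wider than that between male naive 1 and primed 1. The difference of 0.7 (SE 0.18, 95% interval 0.26 to 1.13) missed the threshold at adjusted p = 0.0594 (unadjusted p = 0.0079). It was 1 without primed 1 (adjusted p = 0.0446) and 0.39 without primed 2 (adjusted p = 0.101), so its size rests on which primed line is used. The rows of SNORA36 and SNORA56, small nucleolar RNAs inside DKC1, were listed at 0 in all libraries.

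Counted over the 8 genes, 1 was called higher in naive than in the primed lines and 1 lower. Over all tested rows 11.3% were called, 6.72% higher and 4.59% lower, so 2 calls among 8 genes is a small count to read. The median difference was -0.06 over the 8 genes and 0.03 over all tested rows. With upper-quartile scaling 693 rows were called higher and 878 lower, against 920 and 628 with FPKM as deposited. Values of the naive and primed lines did not overlap for 2 genes that were higher in naive (TERF1 and DKC1) and 3 that were lower (TINF2, ACD and TERT). Of all tested rows, 34.8% did not overlap, 18.9% higher and 15.9% lower in naive lines.

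**Figure D2:**
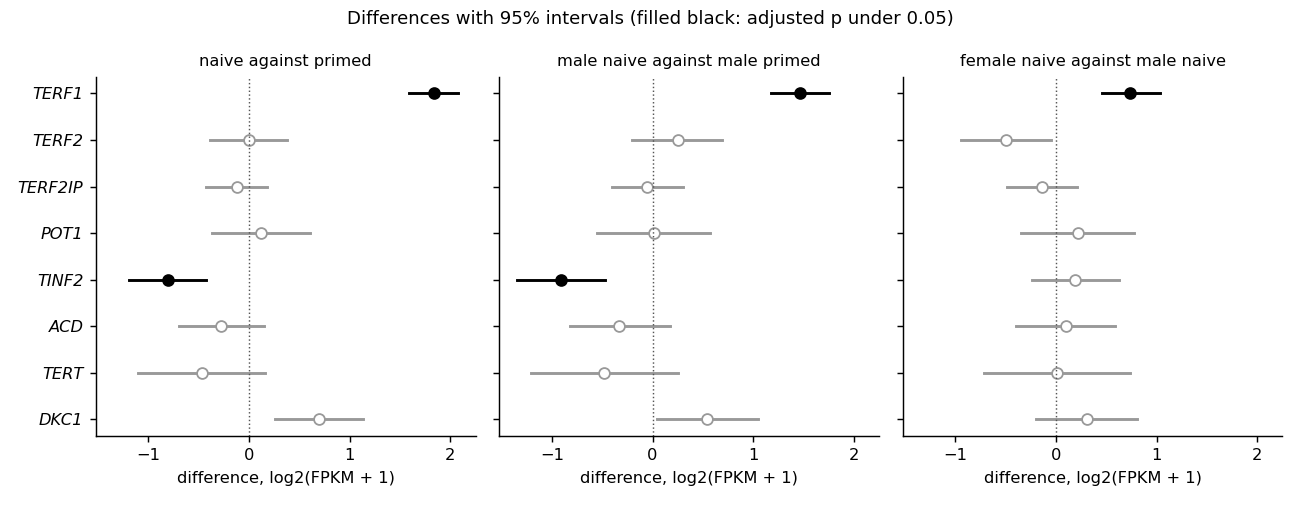
Differences of the 8 genes on the log2(FPKM + 1) scale (horizontal axes) with 95% intervals from limma, in 3 panels: all naive against primed, the male lines alone, and female against male naive. Filled black points have an adjusted p under 0.05: TERF1 in all 3 panels (1.84, 1.47 and 0.74) and TINF2 in the first 2 (-0.81 and -0.91).

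Ratios within a library do not depend on how libraries were scaled to each other, and they showed the TERF1 difference directly. TERF1 made up 73% and 67.7% of the summed FPKM of the 6 shelterin genes in female naive lines, 56.6% and 60.2% in male naive lines and 32.2% and 31.6% in the primed lines. TERF1 was thus the largest component in every line. The sum itself was 329.5 and 327.3 FPKM in the female naive, 233.6 and 238.4 in the male naive and 150.2 and 158.9 in the primed lines. Without TERF1 it was 88.9 and 105.6, 101.4 and 94.8, and 101.9 and 108.6 FPKM in the same order of groups, so the groups overlapped once TERF1 was taken out. The ratio of TERF1 to TERF2 was 15.2 and 13.3 in the female naive, 5.38 and 6.45 in the male naive and 2.15 and 2.96 in the primed lines. The ratio of TERF1 to TINF2, its direct partner, was 27 and 24.8, 18.7 and 17.3, and 3.35 and 3.12 in that order. Its male naive values rest on few TINF2 fragments, and the TINF2 row lies within the GMPR2 row, as given above. The other shelterin ratios differed less between the groups. The ratio of TERF2 to TERF2IP was 0.779 and 0.788 in the female naive, 1.01 and 1.03 in the male naive and 0.949 and 0.703 in the primed lines. POT1 exceeded its partner ACD 4.43- and 6.64-fold in the female naive, 4.88- and 5.16-fold in the male naive and 2.88- and 5.2-fold in the primed lines. For telomerase, the ratio of DKC1 to TERT was 85.2 and 92.3 in the female naive, 96.1 and 57.3 in the male naive and 27.9 and 29.5 in the primed lines; the naive lines lay above the primed ones, and the male naive ratios rest on the few TERT fragments given above. These ratios are descriptions and carry no test.

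**Figure D3:**
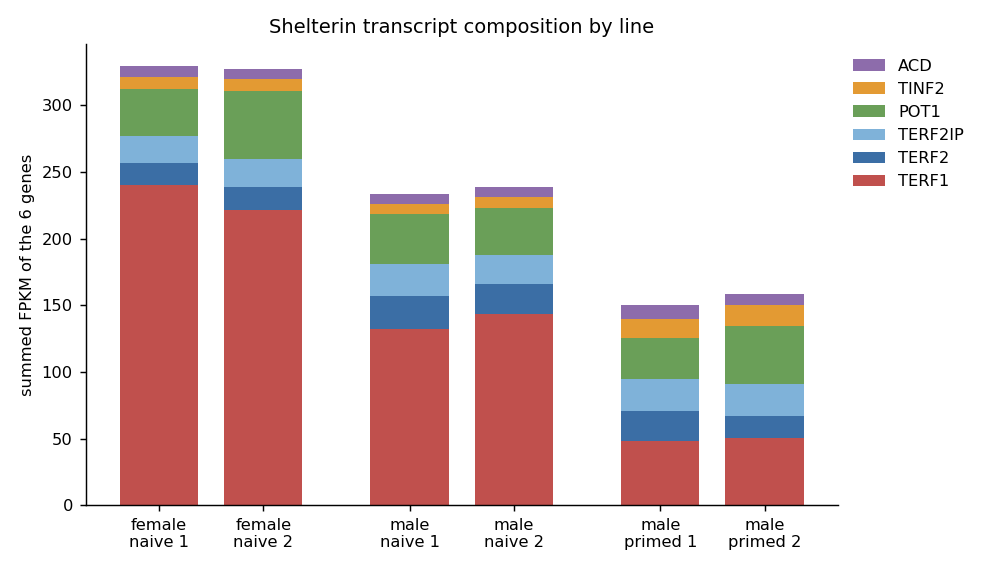
Summed FPKM of the 6 shelterin genes (vertical axis) in each of the 6 lines, stacked by gene, with female naive lines on the left, male naive lines in the middle and male primed lines on the right. The TERF1 block shrinks from left to right (240.6 and 221.7, 132.2 and 143.6, 48.3 and 50.2 FPKM), while the rest of each bar stays between 88.9 and 108.6 FPKM.

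Comparing male naive with male primed lines leaves sex out, provided that all lines called male are male. It uses the same 2 primed libraries, so it is not an independent repeat of the comparison above. For TERF1 the rise was 1.47 (SE 0.12, 95% interval 1.18 to 1.75, limma adjusted p = 0.00401), or 2.76-fold, and this call was lost without male naive 2 (1.41, adjusted p = 0.0604). TINF2 fell by 0.91 (SE 0.18, limma adjusted p = 0.0451), a call that held in 8 of 18 alternatives. It was lost on leaving out any 1 of the 6 lines (differences of -1.01 to -0.8). With precision weights, no filter, the replicate block or the 2 groups alone it was also lost (limma adjusted p = 0.0669, 0.072, 0.0873 and 0.0941). The other 6 genes were not called. DKC1 stood at 0.54 (95% interval 0.04 to 1.05, adjusted p = 0.171), TERT at -0.48 (-1.21 to 0.25), ACD at -0.33 (-0.82 to 0.17), TERF2 at 0.25 (-0.2 to 0.69), TERF2IP at -0.05 (-0.4 to 0.3) and POT1 at 0.01 (-0.55 to 0.57). The count was 1 higher and 1 lower of 8 genes, where 5.39% of all tested rows were called, 3.97% higher and 1.42% lower. The 543 higher and 195 lower rows became 391 and 357 with upper-quartile scaling and 399 and 294 with quantile normalization.

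Female and male naive lines in the same medium differed in TERF1. The female lines were 0.74 higher on the log2(FPKM + 1) scale (SE 0.12, 95% interval 0.46 to 1.03, limma adjusted p = 0.0341), or 1.67-fold, with both female lines above both male lines. Because the primed group is shared, this is also the test of whether the 2 naive groups stand at different distances from the primed lines. The call was lost without male naive 1 (0.68, adjusted p = 0.198), male naive 2 (0.8, 0.17), female naive 1 (0.68, 0.136) or female naive 2 (0.8, 0.14). Depth differs with sex here, at 2730 and 3300 effective fragments for TERF1 in female against 278 and 257 in male naive libraries, and the part of depth was not tested. TERF2 leaned the other way (-0.5, SE 0.18, 95% interval -0.94 to -0.05, adjusted p = 0.192), with both female lines below both male lines. Among the 8 genes 1 was called higher and 0 lower (limma; 1 and 1 at an unadjusted p under 0.05), where 3.31% of all tested rows were called, 0.76% higher and 2.55% lower. Of all 13685 tested rows, 2963 had an unadjusted p under 0.05. The 104 rows called higher and 349 called lower became 114 and 219 with median-of-ratios scaling and 118 and 223 with quantile normalization. DKC1, the X-linked member, was 0.31 higher in female lines (SE 0.21, 95% interval -0.2 to 0.81, adjusted p = 0.454). The 530 tested rows on chromosome X had a median difference of -0.11, against -0.1 for all other rows, and DKC1 stood above both.

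The other genes that build, load and replicate telomeres were read from 5 lists of 60 genes in all, of which 57 were tested, and few were called. In naive against primed lines 3 of the 57 were called higher and 0 lower, or 5.26%, against 11.3% of all tested rows (limma; 7 higher and 4 lower at an unadjusted p under 0.05). Over all 13685 tested rows, 4235 had an unadjusted p under 0.05, so the unadjusted counts of the lists are not a result about them. The median difference of the 57 genes was 0.07. The split was 1 higher and 1 lower with upper-quartile, median-of-ratios or quantile scaling, 2 and 1 with the filter at a mean of 5 FPKM, and 3 and 1 with precision weights, and the lower gene was WRAP53 in each. In male naive against male primed lines 0 were called (7 higher and 3 lower at an unadjusted p under 0.05), and in female against male naive lines 1 was called higher and 0 lower (1 and 10 unadjusted). Over all tested rows the unadjusted counts of these comparisons were 3523 and 2963.

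The list of telomerase ribonucleoprotein assembly had 12 tested genes, 1 called higher and 0 lower (2 and 2 unadjusted), with a median of 0.2. NHP2, which sits with dyskerin on H/ACA RNAs such as the telomerase RNA, was at 126.3 and 127.9 FPKM in the female naive, 137.1 and 142.7 in the male naive and 104.8 and 88.9 in the primed lines. All naive lines were above both primed lines (0.46, SE 0.11, adjusted p = 0.0481), but the call held in only 3 of 19 alternatives, with adjusted p from 0.0403 to 0.179. A pair of further dyskerin partners, chosen after their values were seen, leaned in opposite directions, and neither was called with FPKM as deposited. GAR1, of the same H/ACA particle, was at 78 and 69.3 FPKM in the female naive, 62.4 and 69.1 in the male naive and 58.6 and 37.7 in the primed lines (0.55, SE 0.19, adjusted p = 0.11). WRAP53, which brings telomerase to Cajal bodies, was at 14.8 and 14.9, 19 and 15, and 23.2 and 25.7 FPKM in the same order (-0.59, SE 0.15, adjusted p = 0.0558), and in the 5 settings where it was called its adjusted p was 0.0393 to 0.0492. NOP10, the remaining H/ACA protein, was listed at 0 in all 6 libraries, which is not evidence of absence. No row was found by name for the telomerase RNA gene TERC, so it could not be tested.

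In the list of telomere replication, helicase and end-processing genes, 1 of 14 was called higher and 0 lower (1 and 1 unadjusted), with a median of -0.08. SAMHD1, a dNTP hydrolase that also acts at stalled forks, was at 20.5 and 24.1 FPKM in the female naive, 10.4 and 11 in the male naive and 7.21 and 6.74 in the primed lines. The 3 groups kept the order seen for TERF1, with the primed lines lowest (1.05, SE 0.15, adjusted p = 0.0154). Its call held in 14 of 19 alternatives and was lost with sex ignored (adjusted p = 0.156) and without male naive 1, male naive 2, female naive 2 or primed 1 (0.0592 to 0.0635). It was the list gene called in female against male naive lines (0.99, SE 0.17, adjusted p = 0.0401). That call was lost with no filter (adjusted p = 0.0699), with the replicate block (0.0913), without primed 1 (0.0513) and without male naive 1 (0.198), male naive 2 (0.194), female naive 1 (0.125) or female naive 2 (0.231). In the list of telomeric chromatin and recombination genes, 1 of 13 was called higher and 0 lower (1 and 0 unadjusted), with a median of 0.09. SMC6, of the SMC5/6 complex, was at 26.7 and 25.6 FPKM in the female naive, 28.9 and 26.4 in the male naive and 18.4 and 18.9 in the primed lines (0.5, SE 0.12, adjusted p = 0.0494), a call that held in 3 of 19 alternatives. ZSCAN4, a zinc finger gene tied in mouse to telomere lengthening by recombination, was below the filter, at 0.242 and 0.05 FPKM in the female naive, listed at 0 in both male naive and at 0.1 and 0.192 in the primed lines.

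Of the CST and primase list, whose complex fills in the strand opposite the telomerase product, 0 of 7 genes were called (limma; 0 higher and 1 lower unadjusted), with a median of -0.2. Among 11 end-protection and damage-response partners such as ATM and the MRE11 complex, 0 were called (limma; 3 higher and 0 lower unadjusted), with a median of 0.07.

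**Figure D4:**
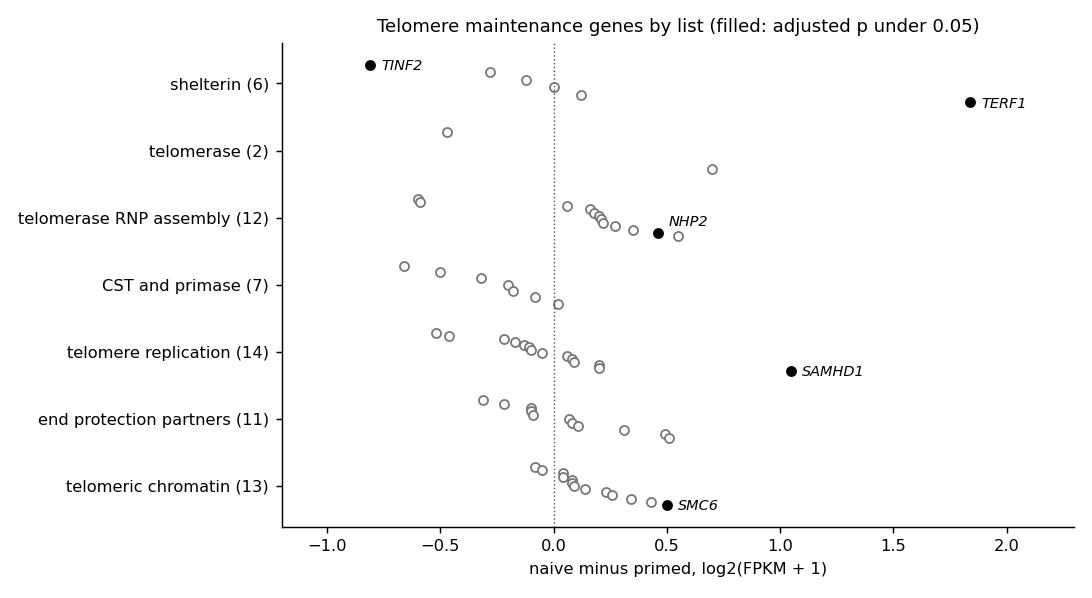
Naive minus primed difference on the log2(FPKM + 1) scale (horizontal axis) of each tested gene of shelterin, telomerase and the 5 telomere lists, with the number tested in brackets. Filled points have an adjusted p under 0.05 and are named: TINF2 at -0.81, TERF1 at 1.84, NHP2 at 0.46, SAMHD1 at 1.05 and SMC6 at 0.5, while the other genes lie between -0.66 and 0.7.

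The genes whose profile over the 6 libraries was closest to that of TERF1 were found by the root mean square distance of centred log2(FPKM + 1) values, over 8756 rows with a name and a naive mean of 5 FPKM or more. DNMT3B, a de novo DNA methyltransferase, was the closest at a distance of 0.0985 (median over all rows compared, 0.934). It was at 208.8 and 177.4 FPKM in the female naive, 107.2 and 114 in the male naive and 33.4 and 41.9 in the primed lines. Next came AGPAT2, a phospholipid synthesis enzyme, at 0.15, and DSE, an enzyme that forms dermatan sulfate, at 0.154. They were followed by ESRP2, an epithelial splicing regulator, at 0.176, and JADE2, a subunit of a histone acetyltransferase complex, at 0.179. Pearson's r with TERF1 was 0.981 to 0.996 for the 5 genes over the 6 libraries, which share their depth and group structure, and it is given as a description.

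**Figure D5:**
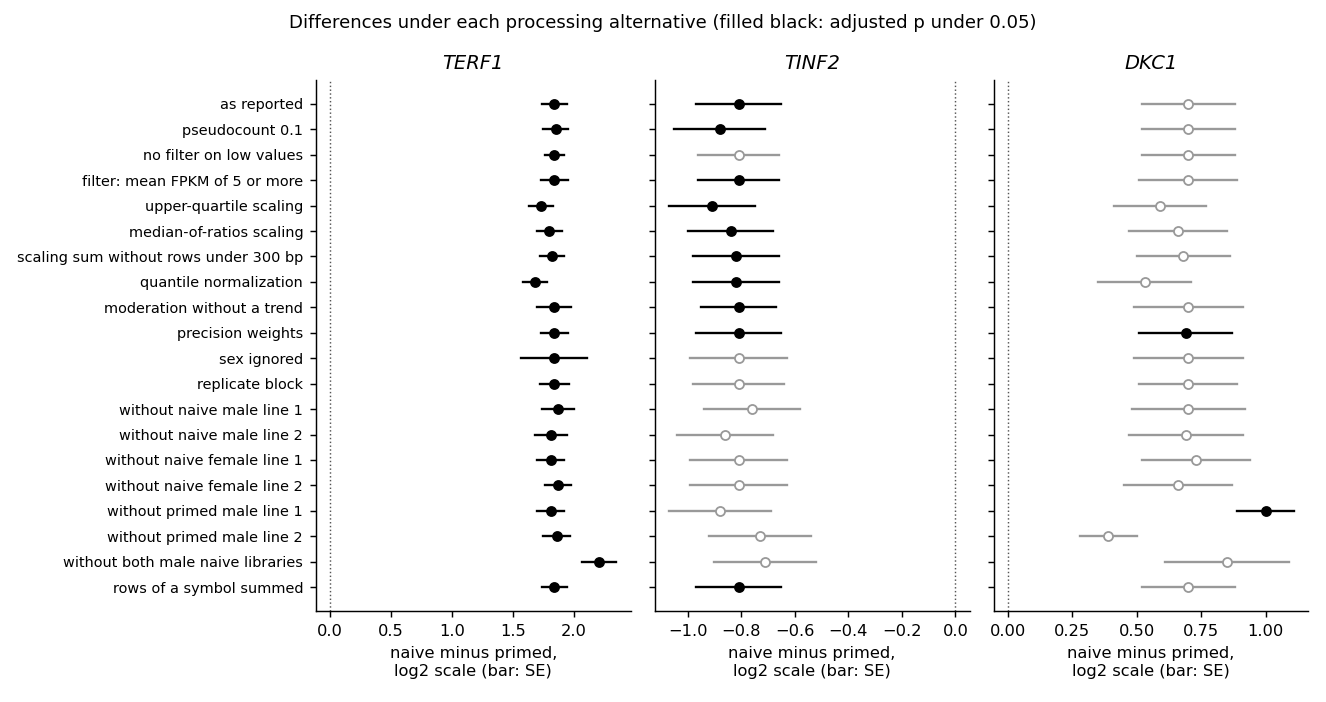
Naive minus primed difference of TERF1, TINF2 and DKC1 on the log2 scale (horizontal axes, bars show the SE) as reported and under each of 19 processing alternatives (rows). Filled black points have an adjusted p under 0.05: TERF1 stays called at 1.68 to 2.21, TINF2 keeps its sign at -0.91 to -0.71 and is called in 9, and DKC1 lies between 0.39 and 1 and is called in 2.

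The TERF1 call against primed lines held in 19 of 19 alternatives, with adjusted p from 0.00138 to 0.034, and its difference was 2.21 without both male naive libraries, which leaves female naive against primed. That setting gave 0.85 for DKC1 (SE 0.24, not called) and -0.71 for TINF2 (adjusted p = 0.0979).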

How the data were processed

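The authors deposited FPKM per gene for 30246 rhesus rows with Ensembl identifiers, beside a lower bound, an upper bound and a status, per the file headers. TopHat 1.3.0 was the aligner named in the submitters' processing notes. No source used here gives the quantifier version, genome build, annotation release or use of strand. Effective fragments were (2 FPKM / (upper bound - FPKM)) squared, which takes bounds as 2 SD and covers counting error only. Groups came from the sample titles, in which only the female naive lines have a sex named. The other lines are called male here, which their titles do not state. A row was tested when its status was good and it reached an FPKM of 1 in at least 2 libraries (13685 rows, with 10 left out for status). Limma 3.58.1 (R 4.3.3) modelled log2(FPKM + 1), a scale that understates changes of low genes, by a mean per group with trended moderation (3 residual degrees of freedom). Calls needed a two-sided Benjamini-Hochberg adjusted p under 0.05 over all tested rows. The fit was also run on simulated counts with known changes and the same added spread for every row, which cannot show how real lines differ. Symbols came from the files and, for 728 rows, from a table of gene names alone (15769 identifiers matched), which named 10 list genes. The members and lists were chosen with earlier results of these data known. List genes named are the called ones whose naive and primed values are separate and whose mean is at least 5 FPKM, up to 4 per list by p, and likeness was computed for the member with the largest difference. Alternatives changed the pseudocount, filter, scaling, moderation, weights, sex term, replicate block, libraries and rows per symbol.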

Additional observations from a re-analysis of the deposited data

Results flagged for a closer look

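On the log2(FPKM + 1) scale TERF1 was 0.74 higher in female than in male naive lines (limma adjusted p = 0.0341). By these estimates female naive lines stood further from primed lines (2.21) than male naive lines did (1.47). The call between the 2 naive groups held in 12 of 18 alternatives and was lost without any 1 of the 4 naive lines. Depth differs between these groups too, and its part was not tested. POT1 had 1 line apart among the 4 naive lines. Female naive 2 was at 51.1 FPKM and the other 3 at 35.7 to 37.6 FPKM, and its gap to the nearest line was 0.873 of the whole range, above the critical value of Dixon's test for 4 values. Chance flags about 1 in 20 groups of 4 values drawn from 1 population, and 8 genes were examined. These 4 lines come from 2 naive groups that differ in depth, so that rate need not hold here.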

How the results depend on the processing

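In naive against primed lines, TERF2IP, ACD and TERT kept their direction and stayed uncalled under every alternative run, and TERF1 stayed called; TERT had no value with the filter at a mean of 5 FPKM. The members called numbered 1 with no filter on low values, with sex ignored, with the replicate block and without both male naive libraries, in each case because TINF2 was lost (-0.81, -0.81, -0.81 and -0.71, adjusted p = 0.05, 0.0672, 0.0607 and 0.0979). Leaving out 1 line gave 1 to 2 members. DKC1 was called with precision weights (0.69, adjusted p = 0.0425), and POT1 was at 0 with quantile normalization. All rows called numbered 941, 250, 812 and 625 under the same 4 settings and 177 to 1081 without 1 line. The 5 telomere lists had 1 call with a pseudocount of 0.1, no filter, no trend, the replicate block or both male naive libraries left out, 0 with sex ignored and 0 to 1 without 1 line. Without 1 line the differences ran from -0.19 to 0.19 for TERF2, -0.12 to 0.36 for POT1, -0.88 to -0.73 for TINF2 and 0.39 to 1 for DKC1. In male naive against male primed lines 1 member was called with no filter, precision weights, the replicate block or the 2 groups alone, and 0 to 1 without 1 line. In female against male naive lines 0 were called without a trend or with the replicate block, and 0 to 1 without 1 line. The cause of these changes was not tested, though fits with fewer lines, the block or 2 groups have fewer residual degrees of freedom. Lines of the same library number did not deviate together. Same-numbered deviations correlated at -0.06 for male with female naive lines and -0.05 for male naive with primed lines. For female naive with primed lines the correlation was -0.263, so there deviations went with the other number. The cause was not tested. Upper-quartile scaling gave a median over all rows of -0.06 for male naive against primed, against 0.09 as deposited, and 0.01 for female against male naive, against -0.1. TERT and TINF2 rested on the fewest effective fragments in male naive libraries. Leaving both of these libraries out gave an SE of 0.29 against 0.26 for TERT and 0.19 against 0.16 for TINF2. A comparison with fewer libraries has a larger SE by design, so these values cannot show the part of depth, which was not tested.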
